A study of Mus musculus with 18 samples.

Results

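The messenger RNA of 34 genes, 24 nuclear receptors and 10 of their coregulators, was followed through 6 treatments of mouse brown adipocytes, out of 20295 genes in the count table. The genes were chosen by symbol from a fixed list that covers receptors for fatty acids, retinoids, thyroid hormone and steroids, orphan receptors, the Ncoa coactivators, Med1 and the corepressors Ncor1 and Nrip1. The Nr4a, clock, LXR, vitamin D, Pparg and Esrra genes are not in the list, which was written with earlier results of these data known. Every symbol was present in the table, and 29 of the 34 genes (19 of 24 receptors and 10 of 10 coregulators) passed the filter on low counts, which 12156 genes passed in all.

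Nuclear receptors are transcription factors that bind DNA as monomers, homodimers or heterodimers, and many of them are switched by small lipophilic ligands. The retinoid X receptors are the shared heterodimer partners of the PPARs, the retinoic acid receptors and the thyroid hormone receptors. Without an activating ligand several of these dimers recruit corepressors such as NCOR1. With it they recruit coactivators of the NCOA family and the Mediator subunit MED1. In brown fat, PPARα is known as a sensor of fatty acids freed by lipolysis and as a driver of genes of fatty acid oxidation.

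RNA-seq was done on BAT-LgT cells, a line of wild-type mouse brown preadipocytes that carries the SV40 large T antigen, so all samples come from 1 immortalised line. All 6 groups were differentiated with dexamethasone (a glucocorticoid), IBMX, T3 (thyroid hormone) and insulin, which were no longer added in the days before treatment at day 7. Without inhibitor, 3 groups received for 3 h either Vehicle (DMSO), ISO (isoproterenol, a β-adrenergic agonist, 100 nM) or SR-3420, a ligand that frees the lipase co-activator ABHD5 and so starts lipolysis without the receptor. The dose of SR-3420 was 10 µM per the labels, whereas the text of the study gives another dose. The other 3 groups received inhibitors of the lipases ATGL and HSL for 1 h before the same treatments and are named Lipase Inh. + ISO, Lipase Inh. + SR-3420 and, as their control, Lipase Inh. + Vehicle. Each group held 3 samples, described by the study as independent experiments, so that p-values measure the spread between repeats of this line and not between animals.

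Total counts lay between 10310447 and 21205032 in 17 libraries. Lipase Inh. + SR-3420 replicate 2 held 4263755 counts, of which 18.3% fell on a single gene, Lars2 (0.0397% to 0.121% in the others), and counts involving this group are also given without it where that changes a call. Of 12 brown adipocyte markers, 11 had at least 10 counts in all libraries, and Dio2 had 0 to 6. The summed level of all 12 was highest with ISO (11913 to 13236 CPM, against 8854 to 10102 CPM in Vehicle), and these markers include genes that ISO is known to induce. In Vehicle, Adipoq (3593 CPM), Fabp4 (2603 CPM) and Cebpa (1468 CPM) led the sum. With ISO the mean was higher for Ucp1 (2.69 to 364 CPM) and Ppargc1a (75.7 to 1080 CPM). It was lower for Adrb3 (243 to 80.2 CPM) and Pparg (537 to 481 CPM). Markers of other cells were low, at 89.6 to 139 CPM for 6 preadipocyte markers (136 to 139 CPM with SR-3420 against 89.6 to 119 CPM in Vehicle), at most 6.30 CPM for 4 leukocyte markers, and at most 0.631 and 2.63 CPM for 4 endothelial and 4 muscle markers. The part of these markers' cells in the results was not tested. Levels are in CPM, counts scaled to a common library size after TMM correction. A gene is said to rise or fall where its adjusted p-value from edgeR's quasi-likelihood test, adjusted over all 12156 genes, was at most 0.05. In bulk RNA, a change in the number of cells of a type and a change in RNA per cell cannot be told apart.

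The unstimulated cells set the starting point. Per kilobase of counted length, the highest levels in Vehicle were those of Rxra, the main retinoid X receptor here (73.0 ± 4.37 CPM per kilobase, SD, n = 3), of the corepressor Nrip1, also called RIP140 (70.0 ± 7.61), and of Nr3c1, the glucocorticoid receptor (62.1 ± 4.33). Each of these overlapped its neighbour in the order, and all 3 stood above the next gene, Ncoa4 (42.8 ± 3.17). Nr2f6 (42.7 ± 9.42), Rxrb (39.1 ± 8.38), Ppard (37.1 ± 2.55) and Ppara overlapped with Ncoa4 or with one another. Thra, the thyroid hormone receptor α gene, followed at 24.7 ± 1.22 and did not overlap Ppara. Ncor1 lay at 19.6 ± 2.76, Ncoa1 at 18.2 ± 1.83 and Rara at 16.5 ± 1.35, with overlaps down the order from Thra to Rara. At the other end, Rarb (0.594 ± 0.202), the mineralocorticoid receptor gene Nr3c2 (0.311 ± 0.105) and the progesterone receptor gene Pgr (0.0953 ± 0.0111) were the lowest of the genes that passed the filter.

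**Figure D1:**
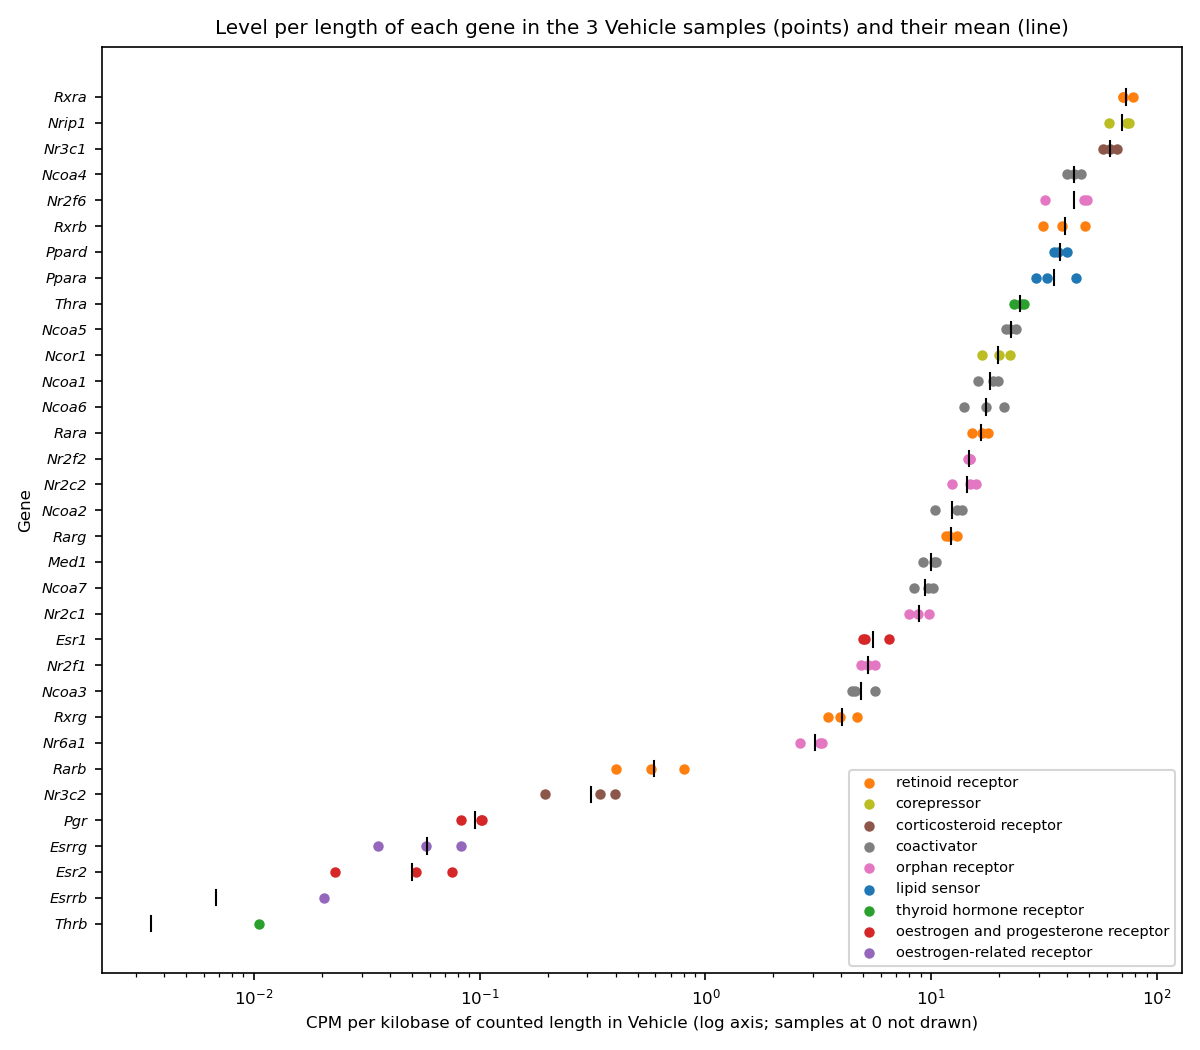
Level of each gene in the 3 Vehicle samples, in CPM per kilobase of counted length on a log axis, with 1 point per sample, a line for the mean (zeros included) and colours for the role. Rxra, Nrip1 and Nr3c1 lead at 62.1 to 73.0 CPM per kilobase, and Rarb, Nr3c2, Pgr and the genes that failed the filter lie below 1.

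The other 5 listed receptors did not pass the filter, so that nothing can be said of their response at this depth. Nr5a2, the liver receptor homologue, had 0 counts in all 18 libraries. Thrb, the second thyroid hormone receptor gene, had 0 to 1, Esrrb 0 to 2, Esr2, the oestrogen receptor β gene, 0 to 9 and the oestrogen-related receptor gene Esrrg 0 to 12 counts per library. Thyroid hormone and oestrogen receptor transcripts were thus counted almost wholly from Thra and Esr1.

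The stretches of 250 bases before the annotated starts are shown for 4 genes: Ppara and Nrip1, whose response to ISO turned with the inhibitors, Rxra, which fell, and Ncoa4, which had the largest rise. They were read from the mm9 genome, 5′ to 3′ on the strand of the gene, and end at the base before the start given in the deposited table. Capitals mark TGACG, the core of the cAMP response element.
Ppara, mm9 chr15:85565744-85565993, plus strand: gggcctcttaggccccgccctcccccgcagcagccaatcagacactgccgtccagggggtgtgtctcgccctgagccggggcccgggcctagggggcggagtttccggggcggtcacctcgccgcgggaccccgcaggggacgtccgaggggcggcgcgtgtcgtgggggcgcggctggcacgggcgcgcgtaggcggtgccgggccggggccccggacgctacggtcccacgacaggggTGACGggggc
Nrip1, mm9 chr16:76373295-76373544, minus strand: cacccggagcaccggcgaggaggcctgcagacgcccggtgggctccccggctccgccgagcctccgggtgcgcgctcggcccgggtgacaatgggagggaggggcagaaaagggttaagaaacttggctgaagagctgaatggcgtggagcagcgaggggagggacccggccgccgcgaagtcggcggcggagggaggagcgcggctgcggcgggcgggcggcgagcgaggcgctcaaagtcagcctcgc
Rxra, mm9 chr2:27532471-27532720, plus strand: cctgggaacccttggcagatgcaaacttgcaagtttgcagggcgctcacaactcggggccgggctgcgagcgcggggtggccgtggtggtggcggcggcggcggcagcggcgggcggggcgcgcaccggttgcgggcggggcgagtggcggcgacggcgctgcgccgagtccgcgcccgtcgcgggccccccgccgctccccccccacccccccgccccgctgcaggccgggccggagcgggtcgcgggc
Ncoa4, mm9 chr14:32972823-32973072, plus strand: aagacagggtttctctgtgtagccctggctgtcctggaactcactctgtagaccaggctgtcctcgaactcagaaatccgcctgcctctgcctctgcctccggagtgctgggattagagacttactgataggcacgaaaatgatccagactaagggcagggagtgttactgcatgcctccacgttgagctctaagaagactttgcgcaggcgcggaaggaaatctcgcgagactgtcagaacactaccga
Searched on both strands, TGACG was found in 1 of these windows, that of Ppara, 6 to 10 bases before the start. The same letters stood in 27.3% of the windows of all 12156 tested genes and in 3 of the 29 tested members, Ppara, Rxrb and Nr2c1. The whole element TGACGTCA, which contains TGACG, was in 0 members (2.84% of all), and the direct repeat AGGTCANAGGTCA, a strict form of the site bound by PPAR with RXR, was in 0 (0.0411% of all). TGATGNAA, an ATF4 with C/EBP site, was in 1 member, Nr6a1 (1.76% of all). The median GC content of the windows was 67.2% in the members and 60.4% in all genes. Such matches describe letters in a short window and not binding.

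How ISO and SR-3420 moved these genes was read against Vehicle, a control group that both comparisons share. With ISO, 8 members rose and 11 fell, 65.5% of the 29 tested, where 51.8% of all tested genes were called (26.8% higher and 25% lower). With SR-3420, 9 rose and 8 fell, 58.6% against 51.4% of all genes (26% higher and 25.4% lower). Both shares stood near the background, so that being changed at all did not set the members apart, and the account below rests on single genes. Their median on the log2 scale was -0.09 for ISO and 0.12 for SR-3420, against -0.02 for all genes in both. Changes of 2-fold or more were seen in 6 members with ISO (Ppara, Ncoa1 and Ncoa4 up, Rarg, Rxra and Thra down) where 9.11% of all genes passed, and in 4 with SR-3420 (Ppara and Nrip1 up, Rarg and Thra down) where 6.33% passed. Receptors and coregulators leaned apart: 3 receptors rose and 9 fell with ISO, and 2 rose and 8 fell with SR-3420, whereas 5 coregulators rose and 2 fell with ISO and 7 rose and 0 fell with SR-3420. These splits depend on scaling. On total counts alone, without TMM factors, the median gene moved by -0.31 with ISO and -0.16 with SR-3420, the share of all calls that were higher went from 51.7% to 19.9% and from 50.6% to 30.8%, and the members split into 4 up and 16 down with ISO and 6 up and 9 down with SR-3420. With ISO the coregulators then no longer leaned towards rises. Nrip1 (0.12), Ncor1 (0.16) and Med1 (-0.06) were not called, and Ncoa5 (-0.30) and Ncoa7 (-0.45) were called lower. With SR-3420 the rises of Ncoa5, Ncoa6 and Ncoa7 were not called, and no coregulator fell.

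**Figure D2:**
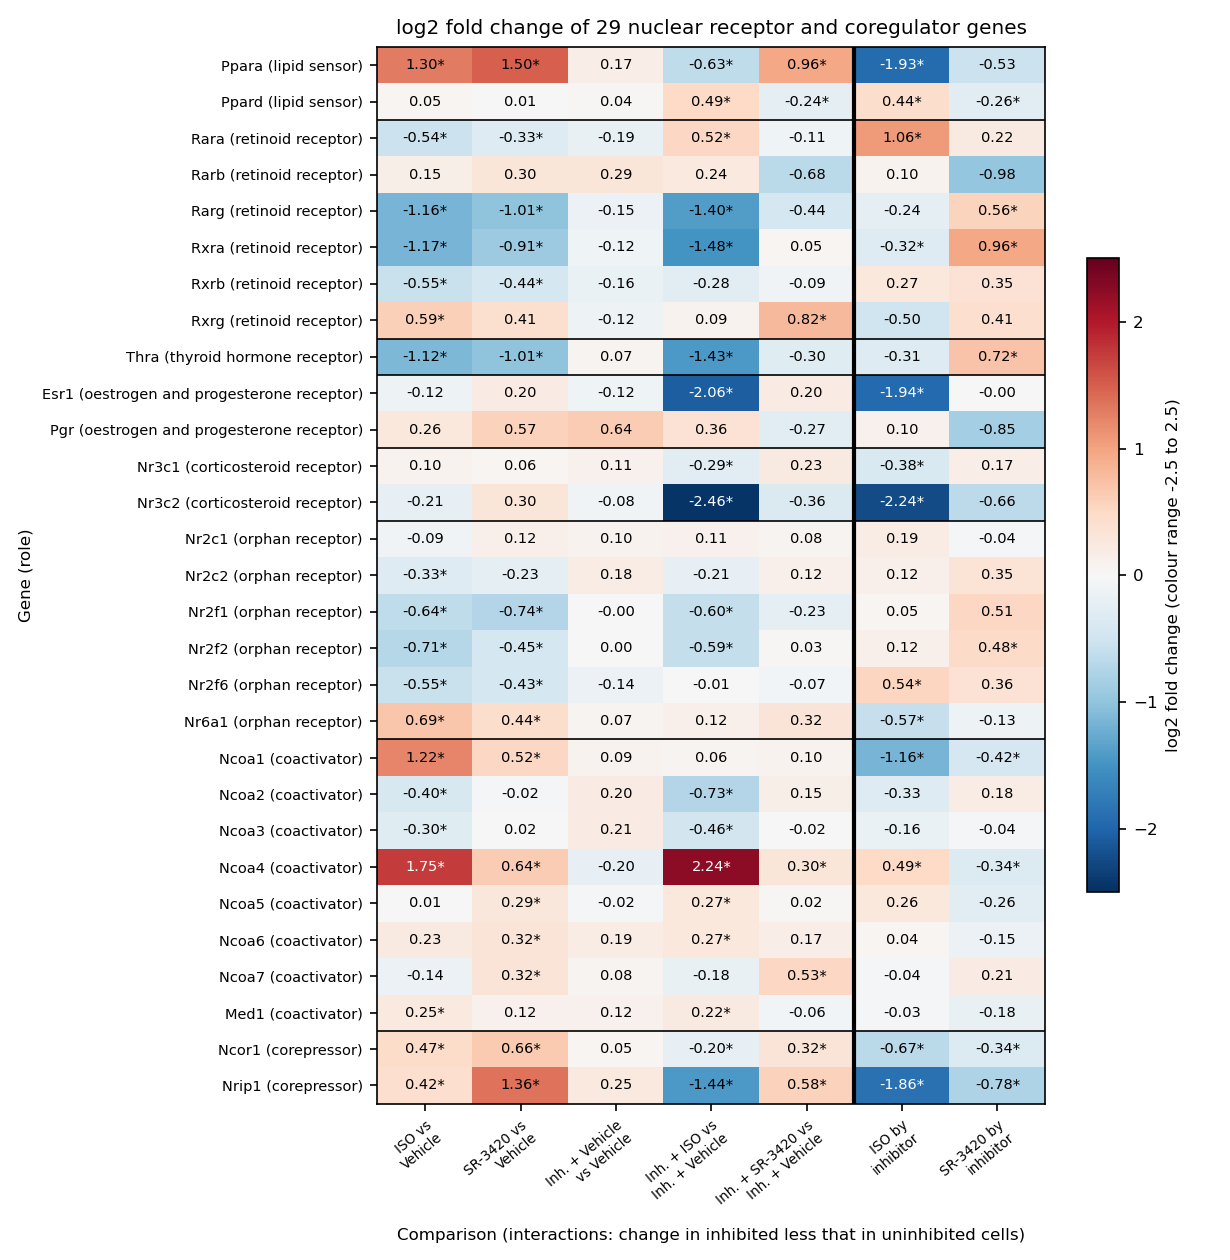
log2 fold changes of the 29 tested members (rows, by role) in 5 comparisons and, right of the thick line, in both interactions, the change in inhibited cells less that in uninhibited cells; colour runs from -2.5 (blue) to 2.5 (red) and an asterisk marks an adjusted p-value of at most 0.05. Ppara and Nrip1 change sign between ISO alone and ISO with inhibitors (1.30 to -0.63 and 0.42 to -1.44), Rxra, Thra and Rarg are blue in both, and the column of inhibitors alone holds no asterisk.

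Ppara, the fatty acid receptor PPARα, rose with both stimuli, and the inhibitors turned its response to ISO but not that to SR-3420. It held 233, 314 and 209 CPM in Vehicle, 609, 668 and 579 CPM with ISO and 703, 814 and 621 CPM with SR-3420. With inhibitors it held 282, 353 and 216 CPM in Lipase Inh. + Vehicle, 185, 199 and 165 CPM in Lipase Inh. + ISO and 533, 642 and 489 CPM in Lipase Inh. + SR-3420. All samples with ISO or SR-3420 alone lay above all Vehicle samples, all Lipase Inh. + ISO samples lay below those of Lipase Inh. + Vehicle, and all Lipase Inh. + SR-3420 samples lay above them. ISO raised it 2.45-fold (log2 1.30 ± 0.15, SE, adjusted p = 3.36e-07) and SR-3420 2.82-fold (log2 1.50 ± 0.15, adjusted p = 5.82e-08). With inhibitors ISO lowered it (log2 -0.63 ± 0.15, adjusted p = 0.00128), and the interaction, the change in inhibited cells less that in uninhibited cells, was -1.93 ± 0.22 (adjusted p = 4.8e-07). SR-3420 still raised it 1.95-fold in inhibited cells (log2 0.96 ± 0.15, adjusted p = 0.000437). Its interaction, -0.53 ± 0.21 on the log2 scale, missed the threshold (adjusted p = 0.0686, with a 95% interval from -0.98 to -0.09). This value passed without Lipase Inh. + SR-3420 replicate 2 (-0.65), Lipase Inh. + Vehicle replicate 3 (-0.70), SR-3420 replicate 3 (-0.63) or Vehicle replicate 2 (-0.73), and with no filter on low counts (-0.55, adjusted p = 0.0078). It passed too when edgeR's fit held a term for the replicate number (-0.53, adjusted p = 0.000227), a number whose meaning the labels do not give.

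Ppard, the gene of the related receptor PPARδ, did not follow. Vehicle samples held 118, 112 and 128 CPM, ISO samples 126, 127 and 116 CPM and SR-3420 samples 121, 126 and 115 CPM. In inhibited cells the values were 117, 125 and 126 CPM with Vehicle, 175, 175 and 166 CPM with ISO and 101, 106 and 103 CPM with SR-3420. Without inhibitors the 3 groups overlapped, and with them ISO samples lay above and SR-3420 samples below the Vehicle samples. The rise with ISO in inhibited cells was 0.49 ± 0.06 (log2, adjusted p = 1.03e-06), with an interaction of 0.44 ± 0.09 (adjusted p = 0.000699). Its fall with SR-3420 in inhibited cells (-0.24 ± 0.07, adjusted p = 0.0339) lost the call without any 1 of the 6 samples compared (-0.28 to -0.23, adjusted p = 0.052 to 0.12). That call was also lost with only the groups compared (-0.25). The SR-3420 interaction (-0.26 ± 0.09, adjusted p = 0.0399) lost its call without Vehicle replicates 1 or 2, SR-3420 replicates 1 or 2, Lipase Inh. + Vehicle replicates 2 or 3, or Lipase Inh. + SR-3420 replicates 1 or 3 (-0.26 to -0.22). It was also not called on total counts alone, with no filter on low counts and with only the groups compared.

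**Figure D3:**
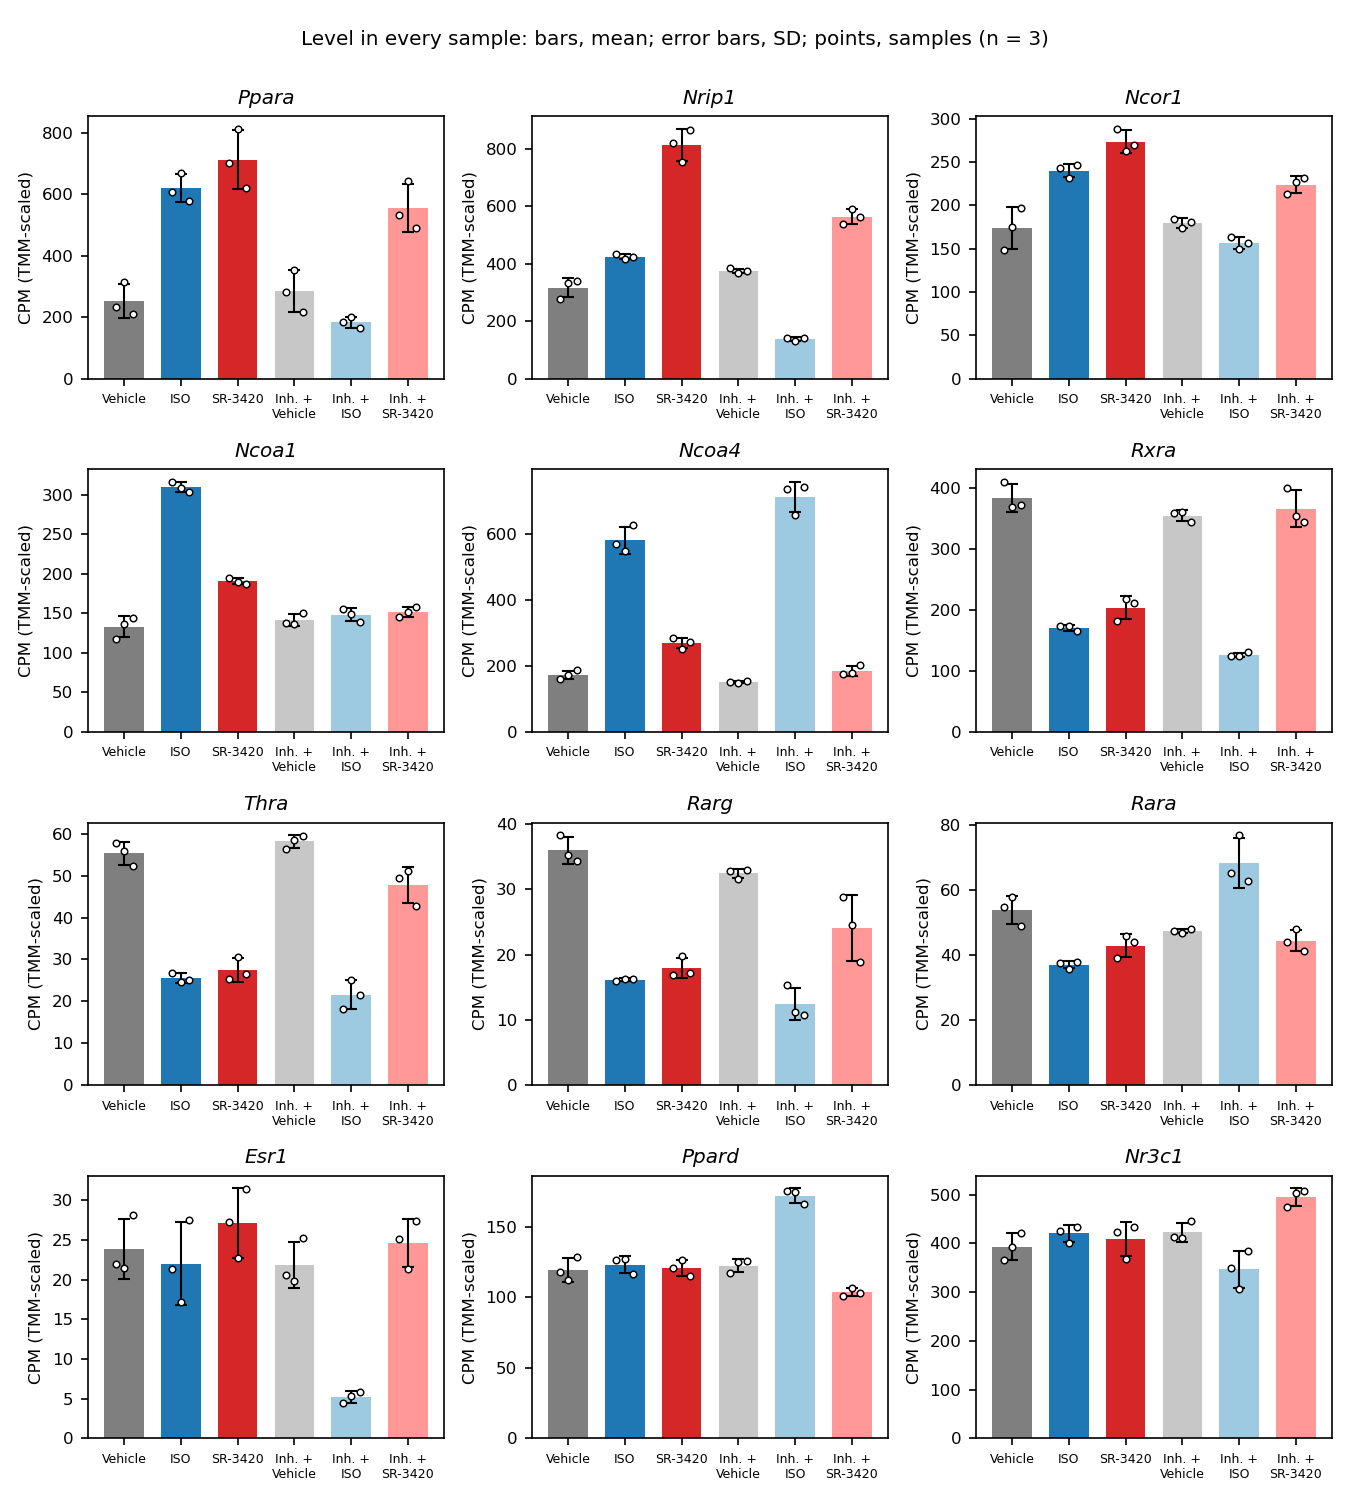
CPM of 12 members in the 6 groups; bars are means, error bars SD and points the 3 samples of a group, each panel with its own axis from 0. Ppara stands at 185, 199 and 165 CPM with inhibitors and ISO against 609, 668 and 579 CPM with ISO alone, Ncoa4 is highest with inhibitors and ISO, and Rxra is low in both ISO groups and with SR-3420 but not with inhibitors and SR-3420.

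The retinoid receptors mostly fell. Of the 6 members, Rara, Rarg, Rxra and Rxrb fell with ISO and with SR-3420, and Rxrg rose with ISO. Of all genes, 51.8% were called with ISO (25% lower) and 51.4% with SR-3420 (25.4% lower). With so few receptors, nothing is read from their share. Rxra, the partner of PPARα, held 411, 370 and 372 CPM in Vehicle, 174, 174 and 165 CPM with ISO and 183, 218 and 212 CPM with SR-3420. After the inhibitors it held 360, 361 and 344 CPM with Vehicle, 124, 125 and 131 CPM with ISO and 401, 355 and 344 CPM with SR-3420. Both stimulated groups lay wholly below Vehicle, and in inhibited cells this was so for ISO, while the SR-3420 samples overlapped with Lipase Inh. + Vehicle. ISO lowered Rxra by -1.17 ± 0.07 (log2, adjusted p = 1.7e-11), and SR-3420 by -0.91 ± 0.07 (adjusted p = 1.13e-09). ISO lowered it in inhibited cells too (-1.48 ± 0.07, adjusted p = 2.24e-13). SR-3420 no longer lowered the gene there (0.05 ± 0.07, 95% interval from -0.10 to 0.20), an interaction of 0.96 ± 0.10 (adjusted p = 5.12e-07). The interaction with ISO was smaller (-0.32 ± 0.10, adjusted p = 0.0216), and its call was lost on total counts alone (-0.23) and without ISO replicate 1, Lipase Inh. + ISO replicate 1, Lipase Inh. + Vehicle replicate 1 or Vehicle replicate 2 (-0.30 to -0.29, adjusted p = 0.051 to 0.054).

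Rarg, the gene of retinoic acid receptor γ, went the same way at a lower level. It held 38.4, 35.3 and 34.3 CPM in Vehicle, 15.9, 16.3 and 16.3 CPM with ISO and 16.9, 19.7 and 17.2 CPM with SR-3420. Inhibited cells held 32.8, 31.6 and 32.9 CPM with Vehicle, 15.3, 11.2 and 10.8 CPM with ISO and 28.9, 24.5 and 18.9 CPM with SR-3420. In each case the stimulated samples lay below their Vehicle samples. The change was -1.16 ± 0.13 for ISO (log2, adjusted p = 2.11e-07), -1.01 ± 0.13 for SR-3420 (adjusted p = 1.26e-06) and -1.40 ± 0.14 with ISO in inhibited cells (adjusted p = 1.23e-08). With SR-3420 in inhibited cells it was -0.44 ± 0.13 and missed the threshold (adjusted p = 0.0623), although it passed with DESeq2 (adjusted p = 0.035), with no filter on low counts, on total counts alone and without Lipase Inh. + SR-3420 replicate 1 (-0.64, adjusted p = 0.011). The SR-3420 interaction was 0.56 ± 0.18 (adjusted p = 0.0267), and its call was lost without Lipase Inh. + SR-3420 replicate 1 (0.37), SR-3420 replicate 1 or 3 (both 0.53) or Vehicle replicate 1 (0.51).

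Rara, the gene of retinoic acid receptor α, turned with the inhibitors in the direction opposite to Ppara. Its samples held 54.6, 57.7 and 49.0 CPM with Vehicle, 37.6, 35.8 and 37.8 CPM with ISO and 38.9, 45.7 and 44.0 CPM with SR-3420. In inhibited cells they held 47.2, 46.7 and 48.0 CPM with Vehicle, 65.2, 76.9 and 62.8 CPM with ISO and 44.0, 48.0 and 41.3 CPM with SR-3420. Samples with ISO alone lay below all Vehicle samples, and those with ISO and inhibitors lay above all Lipase Inh. + Vehicle samples. ISO changed it by -0.54 ± 0.09 alone (log2, adjusted p = 2.82e-05) and by 0.52 ± 0.09 with inhibitors (adjusted p = 2.03e-05), an interaction of 1.06 ± 0.12 (adjusted p = 8.05e-07). SR-3420 lowered it by less (-0.33 ± 0.09, adjusted p = 0.00336), and in inhibited cells no change was called (-0.11 ± 0.09).

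Neither of the remaining retinoid X receptor genes, nor Rarb, reached 2-fold in a call. Rxrb fell with ISO (-0.55 ± 0.13, adjusted p = 0.000916) and with SR-3420 (-0.44 ± 0.12, adjusted p = 0.00534, and 0.077 without Vehicle replicate 1). Rxrg, the retinoid X receptor gene with the lowest level, rose with ISO (0.59 ± 0.19, adjusted p = 0.0143), a call lost without Vehicle replicate 3 (0.50, adjusted p = 0.059) and on total counts alone (0.29, adjusted p = 0.18). It also rose with SR-3420 in inhibited cells (0.82 ± 0.20, adjusted p = 0.0197), and there the call was lost without Lipase Inh. + SR-3420 replicate 1 (0.79) or replicate 2, the library with the high Lars2 share (0.67, adjusted p = 0.081), or without Lipase Inh. + Vehicle replicate 1 (0.76) or 3 (0.68). Rarb, counted 7 to 50 times per library, was called in no comparison. Together the 3 retinoid X receptor genes amounted to 116 ± 13.1 CPM per kilobase in Vehicle, 65.3 ± 2.82 with ISO and 73.0 ± 6.28 with SR-3420 (SD, n = 3). In inhibited cells the sum was 106 ± 5.99 with Vehicle, 56.8 ± 2.70 with ISO and 110 ± 10.8 with SR-3420. Rxra made up 63.1% ± 3.66 of that sum in Vehicle and 42.4% ± 0.956 in Lipase Inh. + ISO.

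Set against each other per kilobase, the levels of Ppara and Rxra changed order. The ratio of Ppara to Rxra was 0.410 to 0.620 over the Vehicle samples, 2.56 to 2.81 with ISO and 2.15 to 2.81 with SR-3420. In inhibited cells it was 0.459 to 0.714 with Vehicle, 0.920 to 1.16 with ISO and 0.971 to 1.32 with SR-3420. Ppara was thus the lower of the pair in all 6 samples without a stimulus and the higher one in all 6 samples with a stimulus alone. In inhibited cells both stimuli gave similar ratios from different changes, since with ISO both genes fell and with SR-3420 Ppara rose while the Rxra samples overlapped with those of Lipase Inh. + Vehicle. This ratio is a description of both fits above and was not tested on its own.

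Thra moved like Rarg and Rxra. Vehicle samples held 52.4 to 57.8 CPM, ISO samples 26.8, 24.6 and 25.2 CPM and SR-3420 samples 25.3, 30.6 and 26.6 CPM. Lipase Inh. + Vehicle held 56.5, 58.7 and 59.5 CPM, Lipase Inh. + ISO 18.2, 25.0 and 21.6 CPM and Lipase Inh. + SR-3420 49.4, 51.2 and 42.9 CPM. All stimulated samples lay below the Vehicle samples of their own kind, by little for SR-3420 in inhibited cells. On the log2 scale ISO changed it by -1.12 ± 0.10 (adjusted p = 5.19e-09), SR-3420 by -1.01 ± 0.10 (adjusted p = 2.3e-08) and ISO in inhibited cells by -1.43 ± 0.10 (adjusted p = 7.25e-11). The change with SR-3420 was smaller in inhibited cells and was not called (-0.30 ± 0.10, adjusted p = 0.0946), with an interaction of 0.72 ± 0.14 (adjusted p = 0.000531). For ISO the interaction was -0.31 ± 0.14 and missed the threshold (adjusted p = 0.0948), but passed without Lipase Inh. + ISO replicate 2 (-0.42, adjusted p = 0.029).

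Among the steroid receptors, changes were seen where ISO met inhibited lipases. Esr1, the gene of oestrogen receptor α, held 22.0, 21.4 and 28.1 CPM in Vehicle, 21.4, 17.1 and 27.5 CPM with ISO and 27.2, 22.7 and 31.5 CPM with SR-3420. With inhibitors it held 20.6, 19.8 and 25.2 CPM with Vehicle, 4.41, 5.31 and 5.83 CPM with ISO and 25.1, 21.3 and 27.4 CPM with SR-3420. The 3 Lipase Inh. + ISO samples lay below the other 15 samples, which overlapped one another. The change with ISO was -0.12 ± 0.16 without inhibitors (log2, adjusted p = 0.549) and -2.06 ± 0.18 with them (adjusted p = 3.54e-09), an interaction of -1.94 ± 0.24 (adjusted p = 2.45e-06). The value without inhibitors moved from -0.12 to -0.42 on total counts (adjusted p = 0.031), a move close to the shift of the median gene (-0.31).

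Nr3c2, the mineralocorticoid receptor gene, was near the detection limit. Its raw counts were 22, 21 and 9 in Vehicle, 18, 14 and 8 with ISO and 18, 12 and 44 with SR-3420. In inhibited cells they were 11, 14 and 28 with Vehicle, 0, 3 and 6 with ISO and 5, 5 and 19 with SR-3420. Lipase Inh. + ISO held the 3 lowest CPM values of all 18 samples, at 0 to 0.304 CPM against 0.451 CPM or more elsewhere. The log2 fold change with ISO in inhibited cells was -2.46 ± 0.59 (adjusted p = 0.00116). The interaction of -2.24 ± 0.75 (adjusted p = 0.0271) lost its call without ISO replicate 1 (-2.12), Lipase Inh. + ISO replicate 1, the sample at 0 (-1.80), or Lipase Inh. + Vehicle replicate 3 (-1.92).

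Nr3c1 was among the most abundant members and changed little. It held 366, 393 and 420 CPM in Vehicle, 426, 401 and 434 CPM with ISO and 424, 368 and 434 CPM with SR-3420. Inhibited cells held 412, 411 and 445 CPM with Vehicle, 350, 306 and 383 CPM with ISO and 475, 503 and 507 CPM with SR-3420. Without inhibitors the groups overlapped, and with them the ISO samples lay below and the SR-3420 samples above the Vehicle samples. ISO lowered it by -0.29 ± 0.08 on the log2 scale in inhibited cells (adjusted p = 0.00392), with an interaction of -0.38 ± 0.11 (adjusted p = 0.0118, and 0.084 on total counts alone), whereas the value for SR-3420 there, 0.23 ± 0.08, was not called (adjusted p = 0.127). Pgr, with 2 to 32 counts per library, was called in no comparison.

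Of the 6 orphan receptors that passed the filter, 4 fell and 1 rose with ISO, where 25% of all genes fell and 26.8% rose. On total counts alone Nr2c1 was called lower with ISO too (-0.39). Nothing is read from the share of so few genes. Nr2f1 and Nr2f2, the genes of COUP-TF1 and COUP-TF2, fell with ISO (-0.64 ± 0.18 and -0.71 ± 0.09), with SR-3420 (-0.74 ± 0.17 and -0.45 ± 0.09) and with ISO in inhibited cells (-0.60 ± 0.17 and -0.59 ± 0.09). With SR-3420 in inhibited cells Nr2f2 stood at 0.03 ± 0.09, with an interaction of 0.48 ± 0.13 (adjusted p = 0.00776). Nr2f6, a further COUP-TF relative, fell under ISO (-0.55 ± 0.15) and under SR-3420 (-0.43 ± 0.15, adjusted p = 0.0171), and the second call was lost without SR-3420 replicate 3 (-0.40), Vehicle replicate 1 (-0.34) or Vehicle replicate 2 (-0.33). Its ISO interaction (0.54 ± 0.21, adjusted p = 0.0489) lost the call without 1 of 8 of the 12 samples in it, all but Vehicle replicate 3, ISO replicate 1, Lipase Inh. + Vehicle replicate 2 and Lipase Inh. + ISO replicate 3 (0.42 to 0.57). Nr6a1, the germ cell nuclear factor gene, rose with ISO (0.69 ± 0.11, adjusted p = 1.22e-05) and SR-3420 (0.44 ± 0.11, adjusted p = 0.00153). In inhibited cells no rise of Nr6a1 with ISO was called (mean 21.5 CPM, against 19.6 CPM in Lipase Inh. + Vehicle), with an interaction of -0.57 ± 0.15 (adjusted p = 0.00604). Nr2c2 fell with ISO (-0.33 ± 0.10, adjusted p = 0.00794), and as it overlaps Mrps25 on the other strand, reads of both cannot be told apart where strand was not used in counting. Nr2c1 was called in no comparison, so that 3 of the 29 tested members, with Rarb and Pgr, were called in none of the 8.

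Among the coactivators, Ncoa4 had the largest rise of all members. NCOA4 was first described as a receptor coactivator and is known as the cargo receptor that delivers ferritin to lysosomes. It held 161, 173 and 186 CPM in Vehicle, 569, 548 and 627 CPM with ISO and 284, 253 and 272 CPM with SR-3420. In inhibited cells it held 151, 147 and 154 CPM with Vehicle, 737, 659 and 742 CPM with ISO and 175, 178 and 202 CPM with SR-3420. Both ISO groups lay above every other sample, and the inhibited ISO samples lay above the uninhibited ones. It rose 3.36-fold with ISO (log2 1.75 ± 0.08, adjusted p = 6.44e-14), 1.56-fold with SR-3420 (0.64 ± 0.08, adjusted p = 4.58e-07) and 4.72-fold with ISO in inhibited cells (2.24 ± 0.08, adjusted p = 8.73e-16). The inhibitors thus enlarged the rise with ISO (interaction 0.49 ± 0.11, adjusted p = 0.00115). For SR-3420 the interaction had the other sign (-0.34 ± 0.11, adjusted p = 0.0218) and lost its call on total counts alone (-0.29) and without Lipase Inh. + SR-3420 replicate 1 (-0.30), SR-3420 replicate 1 (-0.31) or Vehicle replicate 1 (-0.29). The small rise with SR-3420 in inhibited cells (0.30 ± 0.08, adjusted p = 0.0286) lost its call without Lipase Inh. + SR-3420 replicate 3 (0.22), any 1 of the Lipase Inh. + Vehicle samples (0.28 to 0.31) or TMM factors (0.19). It was also not called with only the groups compared.

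Ncoa1, the gene of the steroid receptor coactivator SRC-1, rose with ISO and SR-3420 and did not rise in inhibited cells. Its values were 118, 137 and 144 CPM with Vehicle, 317, 309 and 304 CPM with ISO and 195, 189 and 188 CPM with SR-3420. With inhibitors they were 138, 137 and 150 CPM with Vehicle, 156, 149 and 140 CPM with ISO and 145, 152 and 158 CPM with SR-3420. The 3 inhibited groups overlapped, and the ISO samples without inhibitors lay above all others. ISO raised it 2.33-fold (log2 1.22 ± 0.07, adjusted p = 4.72e-12) and SR-3420 1.43-fold (0.52 ± 0.07, adjusted p = 2.47e-06). In inhibited cells the changes were 0.06 ± 0.07 and 0.10 ± 0.07, with 95% intervals from -0.08 to 0.21 and from -0.05 to 0.24. Both interactions passed, at -1.16 ± 0.10 for ISO (adjusted p = 8.87e-09) and -0.42 ± 0.10 for SR-3420 (adjusted p = 0.00311).

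The other coactivators moved by small amounts. Ncoa2 and Ncoa3, the genes of SRC-2 and SRC-3, fell with ISO (-0.40 ± 0.10 and -0.30 ± 0.09) and with ISO in inhibited cells (-0.73 ± 0.10 and -0.46 ± 0.09). The fall of Ncoa3 without inhibitors lost its call without Vehicle replicate 3 (-0.19, adjusted p = 0.091). The p160 family of SRC coactivators thus split, with Ncoa1 up and Ncoa2 and Ncoa3 down with ISO under each scaling tried. Ncoa5, Ncoa6 and Ncoa7 rose with SR-3420 (0.29 ± 0.08, 0.32 ± 0.10 and 0.32 ± 0.10), calls that were lost on total counts alone (0.13, 0.16 and 0.16), and those of Ncoa6 and Ncoa7 also without Vehicle replicate 1 (0.19 and 0.24). With ISO in inhibited cells Ncoa5 (0.27 ± 0.08) and Ncoa6 (0.27 ± 0.10) rose, but not on total counts alone (both 0.04), and for Ncoa6 not without Lipase Inh. + ISO replicate 1 (0.26) or 2 (0.25) or Lipase Inh. + Vehicle replicate 2 (0.21). Ncoa7 also rose with SR-3420 in inhibited cells (0.53 ± 0.11, adjusted p = 0.00419).

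Med1, the Mediator subunit that nuclear receptors contact, stayed within narrow limits. It held 29.1, 29.7 and 25.8 CPM in Vehicle, 32.9, 33.7 and 34.1 CPM with ISO and 31.7, 31.3 and 28.9 CPM with SR-3420. The inhibited samples held 30.0, 32.4 and 29.5 CPM with Vehicle, 36.6, 37.3 and 33.2 CPM with ISO and 27.9, 34.9 and 27.4 CPM with SR-3420. ISO samples lay above their Vehicle samples in both settings. The calls of 0.25 ± 0.09 with ISO (log2, adjusted p = 0.0276) and 0.22 ± 0.09 with ISO in inhibited cells (adjusted p = 0.0439) rest on the scaling, since on total counts alone the values turned to -0.06 and -0.01. The first was also lost without ISO replicate 2 or 3 (both 0.24) or Vehicle replicate 3 (0.19), and the second without Lipase Inh. + ISO replicate 1 (0.20) or 2 (0.19) or Lipase Inh. + Vehicle replicate 1 (0.21) or 3 (0.19). Both were lost with no filter on low counts (0.24 and 0.23), and the first with only the groups compared (0.24).

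Both corepressor genes rose with both stimuli, and with ISO the inhibitors turned the direction. Nrip1, whose protein is known to hold back the brown fat programme, held 277, 334 and 339 CPM in Vehicle, 434, 416 and 423 CPM with ISO and 821, 754 and 866 CPM with SR-3420. With inhibitors it held 383, 369 and 375 CPM with Vehicle, 141, 131 and 143 CPM with ISO and 538, 589 and 563 CPM with SR-3420. No 2 of the 6 groups overlapped, with SR-3420 at the top and Lipase Inh. + ISO at the bottom. It rose 1.34-fold with ISO (log2 0.42 ± 0.07, adjusted p = 4.61e-05) and 2.57-fold with SR-3420 (1.36 ± 0.07, adjusted p = 2.8e-12). In inhibited cells ISO lowered it (-1.44 ± 0.07, adjusted p = 4.82e-13) and SR-3420 raised it 1.50-fold (0.58 ± 0.07, adjusted p = 3.23e-05). The interactions were -1.86 ± 0.10 for ISO (adjusted p = 1.98e-11) and -0.78 ± 0.10 for SR-3420 (adjusted p = 8.47e-06). Its rise with ISO was 0.12 on total counts alone (adjusted p = 0.24) and was not called, while the fall with ISO in inhibited cells was called in all alternatives.

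Ncor1 overlaps Ttc19 on the other strand, so that reads of both cannot be told apart where strand was not used in counting. It held 148, 175 and 197 CPM in Vehicle, 243, 231 and 246 CPM with ISO and 288, 262 and 269 CPM with SR-3420. The values with inhibitors were 184, 173 and 181 CPM with Vehicle, 164, 150 and 156 CPM with ISO and 213, 227 and 231 CPM with SR-3420. Both stimuli alone lay above Vehicle, and in inhibited cells ISO samples lay below and SR-3420 samples above Lipase Inh. + Vehicle. Ncor1 rose by 0.47 ± 0.08 under ISO (log2, adjusted p = 3.37e-05, but 0.16 and not called on total counts alone), and SR-3420 gave 0.66 ± 0.08 (adjusted p = 4.8e-07). In inhibited cells ISO gave -0.20 ± 0.08 (adjusted p = 0.0364), a call lost without Lipase Inh. + ISO replicate 2 (-0.17) or 3 (-0.19) or Lipase Inh. + Vehicle replicate 1 (-0.17) or 3 (-0.19), and the ISO interaction was -0.67 ± 0.11 (adjusted p = 7.8e-05). SR-3420 gave 0.32 ± 0.08 in inhibited cells (adjusted p = 0.0216), lost on total counts alone (0.21), without Lipase Inh. + SR-3420 replicate 2 (0.31) or 3 (0.29) or without any 1 of the Lipase Inh. + Vehicle samples (0.29 to 0.34). Its SR-3420 interaction (-0.34 ± 0.11, adjusted p = 0.0264) was lost without Lipase Inh. + SR-3420 replicate 1 (-0.30), Lipase Inh. + Vehicle replicate 1 (-0.32), SR-3420 replicate 1 (-0.30) or Vehicle replicate 1 (-0.24). The call of this interaction was also lost on total counts alone and with only the groups compared.

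The inhibitors alone moved no member past the threshold. Between Lipase Inh. + Vehicle and Vehicle, 0 of 29 members were called by edgeR, where 0.913% of all genes were called. The members with an unadjusted p below 0.05 were Nrip1 (0.25 ± 0.07), Ncoa3 (0.21 ± 0.09), Ncoa4 (-0.20 ± 0.08) and Rara (-0.19 ± 0.09). The share of all genes below that value was not counted, so nothing is read from their number. DESeq2 called 1 of them, Nrip1 (adjusted p = 0.043).

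What the inhibitors did to the response to ISO was asked with Lipase Inh. + ISO against Lipase Inh. + Vehicle and with the interaction. In inhibited cells ISO raised 6 members and lowered 13, 65.5% of those tested against 57.7% of all genes (29.4% higher and 28.3% lower). The members' median was -0.20 on the log2 scale, against -0.01 over all genes. Past 2-fold, 1 member rose (Ncoa4) and 6 fell (Rarg, Rxra, Thra, Esr1, Nr3c2 and Nrip1), where 13.1% of all genes passed. On total counts alone the median gene moved by -0.23, the share of higher calls among all genes went from 51.0% to 27.8%, and 3 members rose and 16 fell. The first of these comparisons shares no sample with ISO against Vehicle. With ISO, 7 members fell and 2 rose both without and with inhibitors. A further 4 were called in opposite directions (Ppara, Nrip1 and Ncor1 up alone and down with inhibitors, Rara the reverse). The response to ISO was called only without inhibitors in 6 members and only with them in 6. Over all tested genes, 15.2% fell and 17.6% rose in both, and 3.73% were called in opposite directions. Only without inhibitors 15.3% were called, and only with them 21.2%. The interaction itself was called in 13 members, 4 positive (Ppard, Rara, Nr2f6 and Ncoa4) and 9 negative (Ppara, Rxra, Esr1, Nr3c1, Nr3c2, Nr6a1, Ncoa1, Ncor1 and Nrip1), 44.8% against 31.4% of all genes (14.9% positive and 16.6% negative). By total counts 5 were positive and 7 negative, and the share of positive calls among all genes was 58.6% in place of 47.3%.

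**Figure D4:**
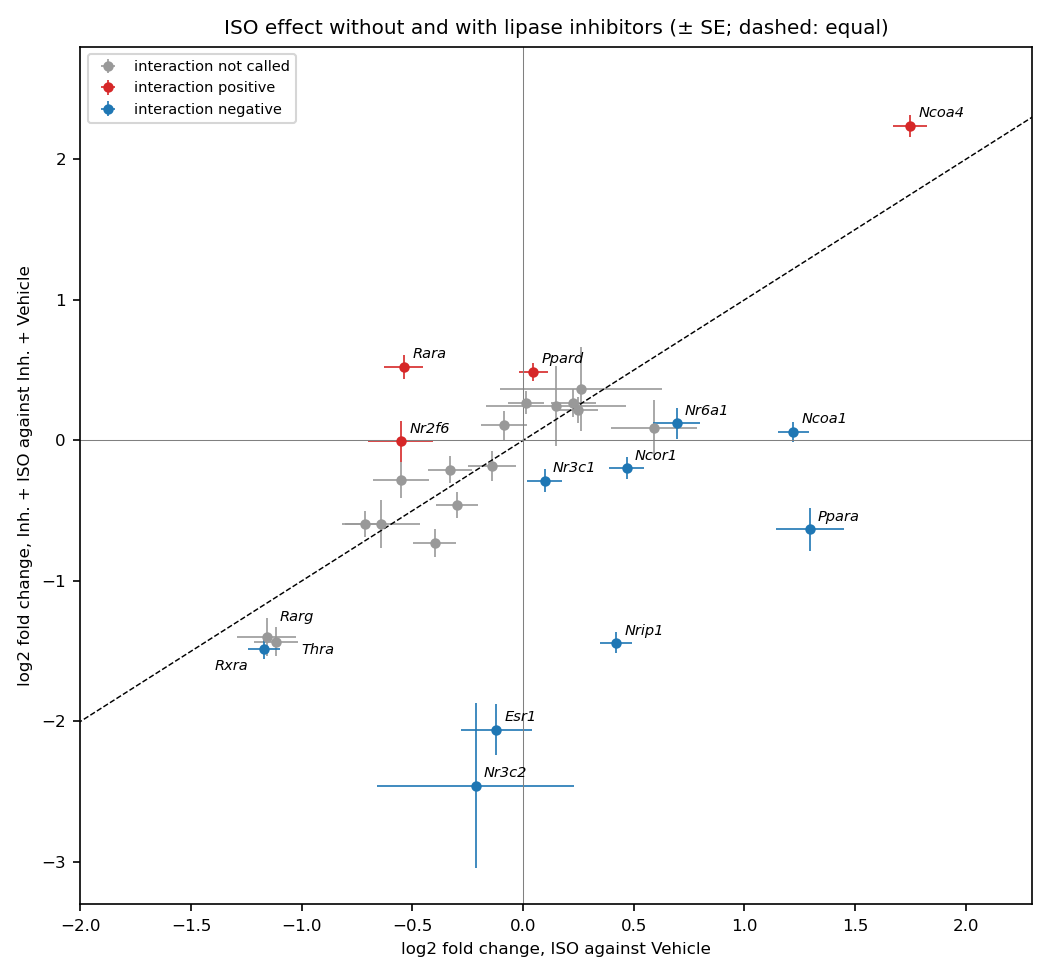
log2 fold change of the 29 members with ISO without inhibitors (horizontal) and with inhibitors (vertical), with SE bars; the dashed line marks equal changes and colour the sign of called interactions. Ppara, Nrip1 and Ncor1 lie in the lower right quadrant (up alone, down with inhibitors), Rara in the upper left, and Rarg, Rxra and Thra at the lower left near the line.

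With SR-3420, fewer genes were called in inhibited cells. Lipase Inh. + SR-3420 against Lipase Inh. + Vehicle called 6 members higher (Ppara, Rxrg, Ncoa4, Ncoa7, Ncor1 and Nrip1) and 1 lower (Ppard), 24.1% of the 29, against 4.34% of all genes (2.99% higher and 1.36% lower). The largest of these changes was that of Ppara. Of the 6, 5 had also risen with SR-3420 alone, and Rxrg had not been called there. The share of all genes that rose in both was not counted, so nothing is read from that number. Without Lipase Inh. + SR-3420 replicate 2, the library with the high Lars2 share, 4 members were higher and 0 lower, as the calls of Rxrg, Ncor1 and Ppard were lost. Without Lipase Inh. + Vehicle replicate 1 or 3 the count of higher members was 3 in place of 6, and the single lower call was lost as given for Ppard. By total counts 4 were higher and 3 lower, with the share of higher calls among all genes at 33.1% in place of 68.8%. The SR-3420 interaction was called in 9 members, 31% against 27.3% of all genes (12.5% positive and 14.8% negative). It was positive for 4 that SR-3420 lowered without inhibitors (Rarg, Rxra, Thra and Nr2f2). It was negative for 4 that SR-3420 raised (Ncoa1, Ncoa4, Ncor1 and Nrip1) and for Ppard. The interaction subtracts the SR-3420 change of the same uninhibited samples, so opposite signs are partly built in and nothing is read from them. The count of negative interactions fell from 5 to 2 without Lipase Inh. + SR-3420 replicate 1, SR-3420 replicate 1 or Vehicle replicate 1, and to 2 on total counts alone. It was 7 without Lipase Inh. + SR-3420 replicate 2, with Ppara (-0.65, adjusted p = 0.036) and Ncoa5 (-0.32, adjusted p = 0.0493) added.

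ISO and SR-3420 were also compared directly. ISO gave higher levels than SR-3420 for 2 members, Ncoa1 (0.70 ± 0.07, adjusted p = 1.2e-07) and Ncoa4 (1.11 ± 0.08, adjusted p = 4.06e-10), and lower levels for 7. The 9 calls are 31% of the members, against 29.7% of all genes (15.8% higher and 13.9% lower). Nrip1 was lowest relative to SR-3420 (-0.94 ± 0.07, adjusted p = 3.43e-09), followed by Ncoa7 (-0.46 ± 0.11), Ncoa2 (-0.37 ± 0.10), Ncoa3 (-0.31 ± 0.09), Ncoa5 (-0.27 ± 0.08), Nr2f2 (-0.27 ± 0.09) and Rxra (-0.26 ± 0.07). Of these calls, that of Ncoa3 was lost without ISO replicate 1 or 2 or SR-3420 replicate 3 (-0.30 to -0.28), that of Ncoa5 without ISO replicate 1 or 3 or SR-3420 replicate 2 (-0.25 to -0.22), that of Nr2f2 without ISO replicate 1 or 2 or SR-3420 replicate 1 or 3 (-0.29 to -0.20) and that of Rxra without SR-3420 replicate 2 (-0.21). Without ISO replicate 1 the count of lower members was 4 in place of 7. Ppara (-0.20 ± 0.15, 95% interval from -0.51 to 0.11), Thra (-0.10 ± 0.10, from -0.32 to 0.11) and Rarg (-0.15 ± 0.14, from -0.43 to 0.14) were not called. By total counts 11 members were lower, with 20.3% of all calls higher in place of 53.1%.

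The other genes of the family and its surroundings were followed in 4 lists, which were written with earlier results of these data known. Their shares against all genes are therefore descriptions and not tests. Of 25 other nuclear receptor genes 14 were tested, of which ISO raised 7 and lowered 2 and SR-3420 raised 6 and lowered 2, or 6 and 4 and 5 and 3 on total counts alone. The called shares were 64.3% and 57.1%, against 51.8% and 51.4% of all genes. The orphan receptor Nr4a1 rose with ISO from 13.9 ± 0.554 to 414 ± 65.5 CPM (log2 4.89) and with SR-3420 to 115 ± 6.36 CPM. Nr4a3 had 0 to 5 counts per Vehicle library and 1072 to 1783 with ISO, while Vdr, the vitamin D receptor gene, rose from 11.5 ± 1.15 to 92.6 ± 10.7 CPM with ISO and stood at 823 ± 7.36 CPM in Lipase Inh. + ISO. Rora and Nr1d1, both of the circadian clock, rose with ISO (1.44 and 0.52) and fell with ISO in inhibited cells (-0.84 and -1.31), with interactions of -2.28 and -1.83. This is the pattern that Ppara, Nrip1 and Ncor1 had.

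Of 56 other coregulators 54 were tested. ISO raised 22 and lowered 9 and SR-3420 raised 21 and lowered 9, while on total counts alone ISO raised 13 and lowered 25 and SR-3420 raised and lowered 12 each. At 57.4% and 55.6%, the called shares stood near those of all genes (51.8% and 51.4%). Ppargc1a, the gene of the coactivator PGC-1α, rose by 3.83 with ISO, 1.01 with SR-3420 and 1.85 with ISO in inhibited cells (log2). Its relative Ppargc1b rose with ISO (1.17) and fell with ISO in inhibited cells (-0.44). Pprc1 rose with ISO (1.10) and SR-3420 (1.40). Lpin1 rose with ISO (1.10) and Smarcd3, a subunit of the SWI/SNF complex, fell with both stimuli (-1.33 and -1.24).

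The supply of ligands was covered by 29 genes of retinoid, thyroid hormone and glucocorticoid handling and lipid chaperones, of which 20 were tested. ISO raised 8 and lowered 4, and SR-3420 raised 8 and lowered 5, which is 60% and 65% of the list against 51.8% and 51.4% of all genes. Without TMM factors the splits were 6 to 8 and 4 to 6. Cyp26b1, an enzyme that breaks down retinoic acid, rose with ISO (1.21) and more with SR-3420 (2.42), and Dhrs9, a retinol dehydrogenase, rose with both (1.21 and 1.30) and fell with ISO in inhibited cells (-0.62). Hsp90aa1, a chaperone of steroid receptors, rose with both (1.53 and 1.34). Dio3, which inactivates thyroid hormone, fell with both (-0.98 and -1.07), and the thyroid hormone transporter gene Slc16a10 fell with ISO in inhibited cells (-1.10, against -0.04 without inhibitors, with an interaction of -1.06).

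Known target genes of the receptors were counted in the same way, of which 25 of 29 were tested. ISO raised 13 and lowered 2, and SR-3420 raised 17 and lowered 1 (60% and 72% called, against 51.8% and 51.4% of all genes). The list medians were 0.44 and 0.45 against -0.02 for all genes, a gap that is a description, as earlier results were known when the list was written. On total counts alone 10 genes rose and 5 fell with ISO, and 11 rose and 2 fell with SR-3420. Scaling shifts the list and all genes alike, so the gap between their medians cannot test it. In inhibited cells ISO raised 7 and lowered 10, and SR-3420 raised 6 and lowered 2. The called shares there were 68% and 32%, against 57.7% and 4.34% of all genes. The interactions were negative for 13 genes and positive for 2 with ISO, and negative for 15 and positive for 1 with SR-3420. Those are shares of 60% and 64%, against 31.4% and 27.3% of all genes. Among targets of the PPARs, Pdk4, which blocks pyruvate oxidation, rose by 2.39 under ISO and 3.08 under SR-3420 (log2) and Plin2, a lipid droplet coat protein, by 2.49 and 2.61, and with ISO in inhibited cells both fell (-0.32 and -0.64). Of glucocorticoid receptor targets, Dusp1 rose by 2.82 and 3.59 and Zbtb16 by 0.94 with each stimulus, and in inhibited cells ISO raised Dusp1 (0.70) and lowered Zbtb16 (-1.66). Cyp26b1 is in this list too, as a target of the retinoic acid receptors. In inhibited cells SR-3420 raised Pdk4 by 0.93 and Plin2 by 0.52. Many of these genes have other inducers, and the part of the receptors in their changes was not tested.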

How the data were processed

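RNA-seq of 18 samples of BAT-LgT brown adipocytes was analysed (6 groups of 3, taken from the sample titles). The authors aligned reads to mm9 with STAR 2.4.2a, made tag directories with HOMER, which kept 1 read per position and read length, and used iRNA-seq to count reads over RefSeq genes. Deposited values are raw counts, neither normalised nor filtered, for 20295 genes, and 0 count columns belonged to other samples. Use of strand in counting is not stated. Limiting reads per position can lower the counts of very abundant genes. Starts in the table count from 0 and are printed counting from 1, and 30 of the 34 members' starts lay within 100 bases of a GENCODE start of the same build.

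Counts were tested in R 4.3.3 with edgeR 4.0.16 (filterByExpr with a minimum count of 10, TMM factors, 1 quasi-likelihood fit over all 18 samples, glmQLFTest), with Benjamini-Hochberg adjustment over 12156 genes. Genes with adjusted p-values up to 0.05 were called, and as 2-fold where the log2 fold change was also 1 or more in size. Interactions are the change in inhibited cells less that in uninhibited cells. SE is the log2 fold change divided by the root of its F value, and intervals cover 95%. Total counts of 4263755 to 21205032 per library set the counting precision. Promoter windows were read from the NCBIM37 (mm9) genome.

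The members and the 4 gene lists were chosen with earlier results of these data known. Values in every sample were given for members past 2-fold in any comparison other than ISO against SR-3420 and for Ppara, Ppard, Rxra, Nr3c1, Thra, Ncor1, Nrip1 and Med1. From each list up to 5 genes with the largest change past 2-fold with ISO, with SR-3420 or in an interaction were named. The script was tested on simulated counts. Alternatives were DESeq2 1.42.0, RLE factors, total counts alone, no filter and a filter of 1 CPM in 3 samples, the replicate block, only the groups compared, and leaving out each sample.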

Additional observations from a re-analysis of the deposited data

Results flagged for a closer look

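In 4 genes the effect of ISO differed between cells without and with lipase inhibitors so far that its direction turned, with calls of opposite sign and a called interaction by edgeR's quasi-likelihood test. Ppara went from 1.30 without to -0.63 with inhibitors on the log2 scale, a difference of -1.93 (adjusted p = 4.8e-07). Nrip1 went from 0.42 to -1.44, a difference of -1.86 (adjusted p = 1.98e-11). Ncor1 went from 0.47 to -0.20, a difference of -0.67 (adjusted p = 7.8e-05, reads shared with the overlapping Ttc19 cannot be told apart), in which the call of -0.20 was lost without any 1 of 4 libraries, Lipase Inh. + ISO replicates 2 and 3 and Lipase Inh. + Vehicle replicates 1 and 3. Rara went the other way, from -0.54 to 0.52, a difference of 1.06 (adjusted p = 8.05e-07). On total counts alone the rises of Nrip1 and Ncor1 with ISO were not called (0.12 and 0.16), while all 4 differences were. Groups held 3 samples each, so that single samples far from the others were not tested for.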

How the results depend on the processing

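For the 14 members with values in every sample, 112 fold changes were recomputed, of which 60 were called. Among 1621 alternative values, 1520 kept their side of the threshold and, where called, their direction, 70 lost the call, 29 gained one and 2 turned: Med1 with ISO (-0.059) and with ISO in inhibited cells (-0.0079), both on total counts alone. RLE factors and the filter of 1 CPM changed none of these calls.

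Counts of members moved as follows. On total counts alone 4 members rose with ISO (8 in the main fit), 3 rose with ISO in inhibited cells (6), 3 fell with SR-3420 in inhibited cells (1), 11 were lower with ISO than with SR-3420 (7) and 2 had a negative SR-3420 interaction (5). Falls with SR-3420 in inhibited cells numbered 2 with DESeq2, 2 with no filter and 0 with only the groups compared (1), and negative SR-3420 interactions 3 with only the groups compared (5). DESeq2 called 1 rise with inhibitors alone (0).

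Leaving out single samples gave 3 to 4 positive and 7 to 10 negative ISO interactions, 3 to 6 positive and 2 to 7 negative SR-3420 interactions, 7 to 8 up and 10 to 11 down with ISO, 7 to 9 up and 7 to 8 down with SR-3420, 4 to 6 up and 12 to 13 down with ISO in inhibited cells, 3 to 5 up and 0 to 1 down with SR-3420 in inhibited cells, 2 to 3 higher and 4 to 7 lower with ISO than with SR-3420, and 0 with inhibitors alone.

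The same replicate numbers occur in all groups, but nothing in the labels says that a number marks a shared day. Deviations of same-numbered samples had mean correlations of -0.0118, 0.150 and 0.190 for numbers 1, 2 and 3. Pairs numbered 1 reached down to -0.114 and pairs numbered 2 to 0.0745, and the numbers were therefore not treated as pairing the samples. Still, 12 of 18 samples correlated best with their own number, which is a hint of pairing from the data and not from the design. With the replicate block, inhibitors alone raised 1 member (Nrip1, adjusted p = 0.048), SR-3420 in inhibited cells lowered 3 and 11 were lower with ISO than with SR-3420. The block also called the SR-3420 interaction of Ppara (-0.53, adjusted p = 0.000227).

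Depth limits the receptors with few counts: Rarb, Nr3c2 and Pgr had at most 50 counts in any library.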
